A study of Mus musculus with 15 samples.

Results

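The genes described here build motile cilia, or carry cargo along cilia of any kind. They were taken by name from the deposited table: every symbol that starts with Dnah, Dnaic, Dnal, Tekt, Rsph, Ift and a digit, Bbs, Spag, Spef, Ccdc or Cfap, with Foxj1 and Tmem212 added. RPKM, a read level scaled to transcript length and to library size, was summed over the transcripts of a symbol. The rule found 154 genes among 10222, from 171 of 12698 RefSeq transcripts. The prefix Ccdc only says that a protein holds coiled coils, so the list also takes in genes with no known part in cilia, and these are kept apart below by role. All cells came from C57BL/6 mice that carried the IL33-citrine reporter on 1 allele (heterozygous), which marks cells that transcribe Il33, and no group was treated; age was not given in the sources used here. The 5 populations, with 3 libraries each, were lung Epcam+ epithelial cells, lung Il33+ mesenchymal stromal cells (MSC), Il33+ and Il33- MSC from white adipose tissue (WAT, mesenteric by the sample titles), and WAT CD31+ endothelial cells. The MSC gate took Lin-CD45-Epcam-CD31-CD24- cells positive for PDGFRα, CD34, Sca1 and Podoplanin. Replicates came from independent experiments.

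A motile cilium is built around the axoneme, a ring of doublet microtubules about a central pair. Outer and inner dynein arms are the motors that bend it, radial spokes and the central pair regulate those motors, and tektins and many CFAP and CCDC proteins hold, dock or space the parts. Intraflagellar transport (IFT) carries building material into the cilium and back, and the BBSome, named after Bardet-Biedl syndrome, moves membrane proteins. IFT and the BBSome also serve the immotile primary cilium, a single antenna that stromal and endothelial cells can carry, whereas the dynein arms and spokes belong to motile cilia. In the lung, motile cilia sit on multiciliated cells of the airways, where the transcription factor FOXJ1 switches on the axonemal programme.

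The libraries held 42711843 to 60773158 alignments (median 53038567). Epithelial markers fitted the epithelial label: the adhesion molecule Epcam was at 25.9, 28.4 and 39.8 RPKM in the epithelial libraries and at most 0.28 in the 12 others. Scgb1a1, the secretory product of club cells, averaged 182749 RPKM in epithelium, and the ciliated cell marker Sntn averaged 21.2 there, so these libraries held RNA of several epithelial cell types. The first WAT endothelial library stood apart, with 10.9% of transcripts at 0 against 1.87% to 7.41% in the 14 others, and 48 of the 154 genes at 0. The summed level of 5 stromal markers was 1496 to 3050 RPKM in the WAT endothelial libraries and 4447 to 5838 in Il33+ WAT-MSC, so the endothelial libraries carried stromal transcripts. The summed level of 4 mesothelial markers was 44.8 to 141 in the endothelial libraries and 23.0 to 70.5 in Il33+ WAT-MSC. That of 3 macrophage markers (Lyz2, Chil3 and Ear1) was 707 to 1359 in lung epithelium, 164 to 215 in lung Il33+ MSC and 2.91 to 94.8 in WAT. Most of this sum was Lyz2, with means of 1006 RPKM in lung epithelium and 127 in lung Il33+ MSC. The 2 others had no excess in epithelium, with means of 45.0 and 44.8 for Chil3 and 9.97 and 12.1 for Ear1. The part of these transcripts in the levels below was not tested. All sorted populations are mixtures, and fewer cells of a type and less RNA per cell cannot be told apart in them.

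The 154 genes fell into a class limited to lung epithelium and a class found in every population. A gene counted as limited when each of the 3 epithelial libraries reached 1 RPKM and each of the 12 others stayed under 1, and as broad when its mean was at least 1 RPKM in each of the 5 populations. By this split 54 genes were limited, 49 were broad and 51 were neither. Over the whole table the limited class held 449 of 10222 genes (4.39%, against 35.1% of the members) and the broad class 6715 (65.7%, against 31.8% of the members). Of the members, 118 had their highest mean in lung epithelium, whereas 28.6% of all genes did. The classes were cut from these levels, so they are a description and no test was made of them.

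**Figure D1:**
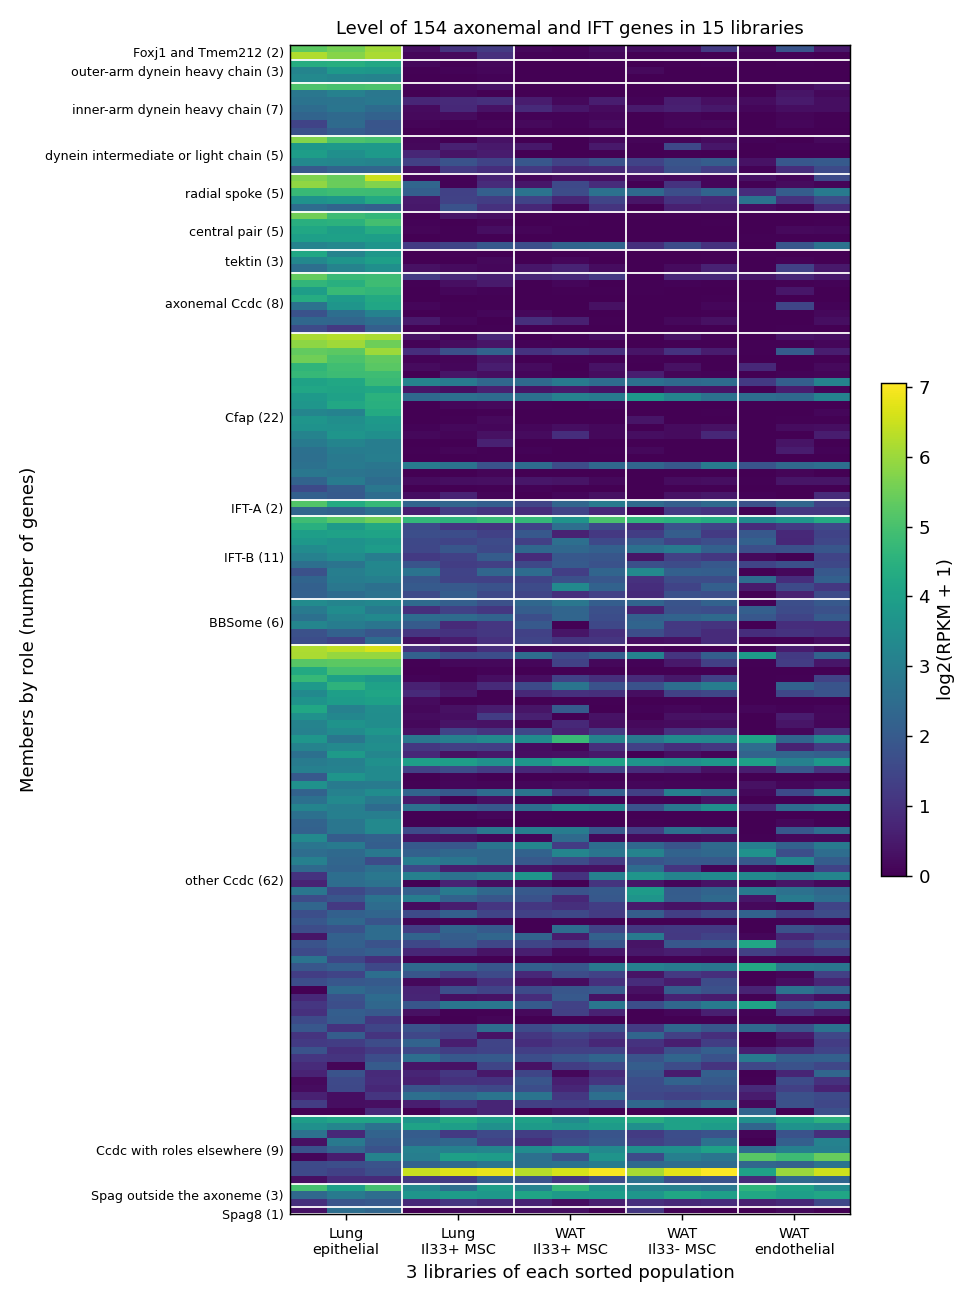
Level of each of the 154 genes (rows, by role, with the number of genes) in each of the 15 libraries (columns), as log2(RPKM + 1). The dynein heavy chain, tektin and most central pair and Cfap rows are bright in the 3 lung epithelial columns and dark elsewhere. Spef1, Cfap20, Cfap36 and Cfap97 are among the exceptions. Most IFT and BBSome rows have signal in the other populations too.

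Roles divided differently. All 10 dynein heavy chains were limited, as were 18 of 22 Cfap genes, 6 of 8 axonemal Ccdc genes, 4 of 5 central pair genes and 2 of 3 tektins. None of the 2 IFT-A, 11 IFT-B and 6 BBSome genes was limited, and 12 of these 19 were broad. Of 9 Ccdc genes with known roles elsewhere 8 were broad. The remaining 62 Ccdc genes divided into 11 limited, 21 broad and 30 in neither class. In 49 of the 54 limited genes the lowest epithelial library was at least 10 times the highest of the other libraries, and in Ccdc113 that ratio was 685.

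The edges of the split were not gaps. Just inside the limited class lay Ccdc153 and Tmem212, whose highest value outside epithelium was 0.96 RPKM, and Ccdc114, a docking factor for outer dynein arms, at 0.95. Just outside it lay Ccdc39, which sets the spacing along the doublets, at 1.33, Ccdc162 at 1.37 and Ccdc141 at 1.53. The limited genes with the lowest epithelial library were Ccdc30 at 1.23, Ccdc103 at 1.25 and Dnah2 at 1.66. The broad class ended with Ccdc102a, whose lowest population mean was 1.03, and Ccdc43 at 1.14 and Ift52 at 1.22, while Ift27 at 0.987, Bbs7 at 0.93 and Ccdc127 at 0.927 fell just short.

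**Figure D2:**
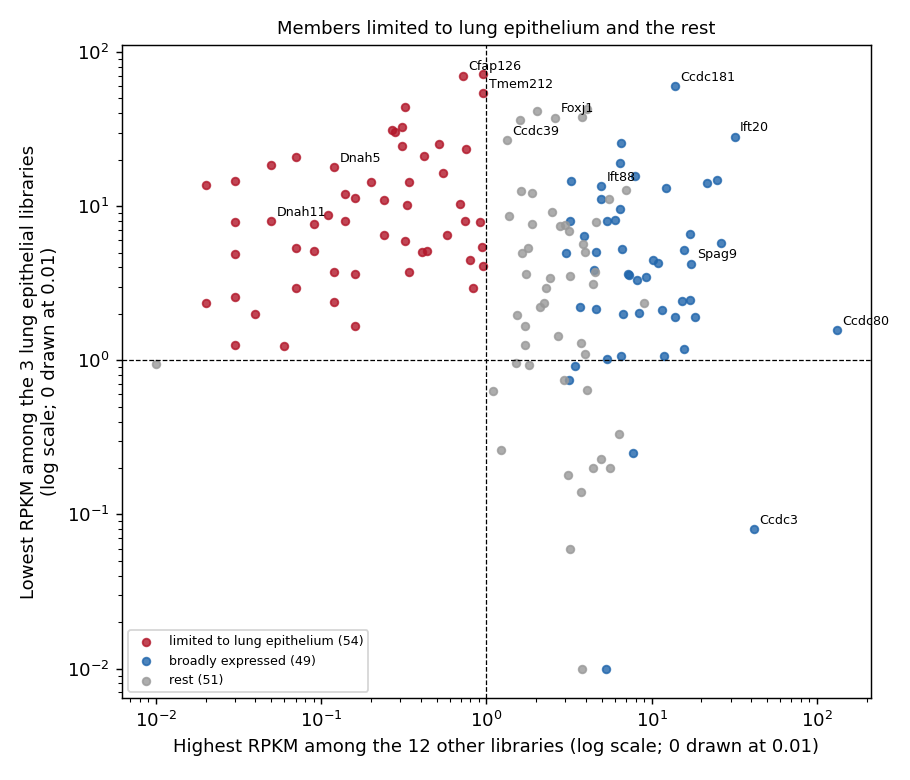
For each gene, the lowest RPKM among the 3 lung epithelial libraries (vertical axis, log scale) against the highest among the 12 other libraries (horizontal axis, log scale), with dashed lines at 1 RPKM. The 54 limited genes fill the upper left field, with Ccdc80 at the far right as the gene with the highest level outside epithelium.

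The start regions of these genes are shown because the limited genes share a level pattern that the promoter sequence was not used to choose. RefSeq windows (build GRCm38.p6, from 250 bases before to 50 bases after each transcript start) were found for 132 of the 154 genes, 4 of them through an older symbol. Each was searched on both strands for GTTGCC, the core of the motif that RFX factors bind, for the longer GTTGCCATG, which contains it, and for GTAAACA, the forkhead core. RFX factors act beside FOXJ1 in cilium gene control. GTTGCC was found in 23 of 50 limited genes (46.0%), 14 of 42 broad genes (33.3%) and 13 of 40 in neither class (32.5%), against 14.1% of 27025 genes of the promoter table and 15.6% of the 7758 that are also in the RPKM table. GTTGCCATG was found in 4 limited genes (8.0%) and 1 broad gene (2.38%), against 0.877% of all genes. GTAAACA was found in 2 limited genes (4.0%) and 1 broad gene (2.38%), against 4.05% of all genes. Roles differed: among genes with a window GTTGCC was found in 3 of 3 tektins, 4 of 7 inner-arm and 0 of 3 outer-arm dynein heavy chains. It was also found in 4 of 8 Ccdc genes with known roles outside cilia. Of the limited genes with high epithelial levels Ccdc153 had GTTGCC, and Cfap126 and Tmem212 did not. Whether the motif goes with the level pattern was not tested. All of these are letter matches and not bound sites, and base composition was not matched between the sets.

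Below are 5 windows that hold GTTGCC on either strand, 5′ to 3′ on the strand of the gene, with each match to GTTGCC or GTTGCCATG in capitals. Cfap161 (chr7:83794790-83795089, minus strand) and Cfap74 (chr4:155408940-155409239, plus strand) are limited genes with the longer motif, Spag16 (chr1:69826720-69827019, plus strand) is a limited central pair gene with cores on opposite strands, and Ccdc181 (chr1:164275348-164275647, plus strand) and Ift88 (chr14:57423821-57424120, plus strand) are broad genes that were far higher in epithelium.
Cfap161: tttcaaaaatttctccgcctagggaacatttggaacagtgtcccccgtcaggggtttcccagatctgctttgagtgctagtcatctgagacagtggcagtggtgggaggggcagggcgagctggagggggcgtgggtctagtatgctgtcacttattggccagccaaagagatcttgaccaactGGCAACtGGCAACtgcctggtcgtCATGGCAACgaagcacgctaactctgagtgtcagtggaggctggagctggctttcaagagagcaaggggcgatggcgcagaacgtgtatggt
Cfap74: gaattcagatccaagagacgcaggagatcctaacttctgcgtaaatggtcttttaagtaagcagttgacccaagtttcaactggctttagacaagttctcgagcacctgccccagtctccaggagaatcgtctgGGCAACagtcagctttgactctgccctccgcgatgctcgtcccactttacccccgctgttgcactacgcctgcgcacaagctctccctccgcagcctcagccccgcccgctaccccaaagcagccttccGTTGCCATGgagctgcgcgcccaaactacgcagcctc
Spag16: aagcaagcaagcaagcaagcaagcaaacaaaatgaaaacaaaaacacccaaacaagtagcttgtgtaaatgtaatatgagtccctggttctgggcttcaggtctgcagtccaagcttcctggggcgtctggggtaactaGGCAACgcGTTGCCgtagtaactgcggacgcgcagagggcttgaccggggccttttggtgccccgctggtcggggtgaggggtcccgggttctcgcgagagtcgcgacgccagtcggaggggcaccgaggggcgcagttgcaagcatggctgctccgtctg
Ccdc181: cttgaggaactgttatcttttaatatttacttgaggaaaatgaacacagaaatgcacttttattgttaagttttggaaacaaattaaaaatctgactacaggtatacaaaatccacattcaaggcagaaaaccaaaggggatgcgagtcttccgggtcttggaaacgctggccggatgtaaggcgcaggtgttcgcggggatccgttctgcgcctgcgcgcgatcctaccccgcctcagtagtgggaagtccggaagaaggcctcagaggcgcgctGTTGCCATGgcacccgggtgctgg
Ift88: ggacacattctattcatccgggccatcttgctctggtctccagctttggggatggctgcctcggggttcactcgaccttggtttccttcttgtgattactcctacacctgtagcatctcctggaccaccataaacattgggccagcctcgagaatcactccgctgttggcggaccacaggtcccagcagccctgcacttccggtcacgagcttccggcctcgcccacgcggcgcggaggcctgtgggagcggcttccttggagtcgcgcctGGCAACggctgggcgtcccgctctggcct
Cfap161 held 3 cores, all read on the opposite strand. In Spag16 the cores began 111 and 103 bases before the start. The core in Ift88 began 21 bases after the start.

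Foxj1 itself was at 37.6, 47.2 and 64.9 RPKM in the epithelial libraries, a mean of 49.9 ± 13.8 (SD, n = 3). Its other values were 0.23, 1.10 and 1.32 RPKM in lung Il33+ MSC, 0.12, 0.07 and 0.20 in Il33+ WAT-MSC, 0.21, 0.23 and 1.31 in Il33- WAT-MSC, and 0.11, 2.61 and 0.41 in WAT endothelium. The epithelial libraries stood clear of all others, and the single values above 1 kept Foxj1 out of the limited class. Tmem212, a membrane protein gene added by name, was at 73.7, 53.9 and 71.1 RPKM in epithelium and under 1 in all others. Over the 15 libraries the members whose log2(RPKM + 1) followed Foxj1 most closely were Cfap46 (Pearson r = 0.982), Cfap52 (0.981), Ccdc40 (0.979), Dnah10 (0.979) and Ccdc153 (0.976), a likeness that rests on the step between the epithelial libraries and the rest.

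Dynein heavy chains are the motor subunits. The outer-arm chain Dnah5 was at 19.8, 20.6 and 17.9 RPKM in epithelium and at most 0.12 in the other libraries. Dnah9, the outer-arm chain of the distal cilium, was at 8.03, 12.8 and 12.2, and Dnah11, its proximal counterpart, at 9.04, 8.20 and 7.97. Across the 3 outer-arm chains no epithelial library was under 7.97 RPKM and no other library was over 0.14. Of the inner-arm chains Dnah6 was the highest, with a mean of 32.01 ± 0.845 (SD, n = 3), and the 6 others averaged 2.78 to 6.48 RPKM. Dnah1 came nearest to being seen elsewhere, at 0.68, 0.78 and 0.94 in lung Il33+ MSC. Dnah7a, Dnah7b and Dnah7c are close copies of each other, so how reads were shared among them is uncertain. Dnah3, Dnah8, Dnah12, Dnah14 and Dnah17 were not analysed here.

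The smaller dynein subunits were less uniform. Dnali1, a light intermediate chain of inner arms, was limited, at 52.5, 33.2 and 30.4 RPKM in epithelium and at most 0.28 elsewhere. The outer-arm intermediate chain Dnaic1 was limited as well, at 14.3, 10.4 and 13.1. Its partner Dnaic2 was at 12.2, 12.9 and 12.8, but 1 Il33- WAT-MSC library reached 1.89. Dnal1, an outer-arm light chain, was broad, with population means of 8.39 RPKM in epithelium and 1.91 in lung Il33+ MSC. Dnal4 was at 2.93, 3.80 and 3.95 in epithelium and 0.21, 1.24 and 0.91 in lung Il33+ MSC.

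The radial spoke genes differed in how far they were seen outside epithelium. The spoke head gene Rsph4a was at 51.0, 41.6 and 90.3 RPKM in epithelium and under 1 in 11 of the 12 others, the exception being 2.01 in the third WAT endothelial library. Rsph1 was at 57.6, 42.8 and 51.9, with 4.05 in the first lung Il33+ MSC library. Rsph3b was broad, at 25.7, 28.3 and 27.6 in epithelium against 0.86 to 6.54 elsewhere. Rsph9 was at 11.1, 12.4 and 18.5 in epithelium and 0.32 to 5.48 elsewhere, its highest other value being in the first WAT endothelial library. Rsph3a was low, at 4.68, 3.87 and 3.43 in epithelium and up to 2.42 in lung Il33+ MSC. Rsph3a and Rsph3b are near copies, so their split is uncertain. No spoke gene met the limited criterion.

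The central pair genes were almost all limited. Spag16 was at 44.6, 27.4 and 24.5 RPKM in epithelium and at most 0.31 elsewhere, and Spag6l was at 20.9, 22.2 and 29.5 against at most 0.07. Spag17 was the steadiest of them, at 14.8, 15.1 and 14.6 against at most 0.03. Spef1, which bundles microtubules, was the exception and was broad, at 7.96, 8.79 and 11.6 in epithelium, 1.32, 1.72 and 2.87 in lung Il33+ MSC and 2.26, 3.83 and 3.91 in Il33+ WAT-MSC.

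Tektins line the doublet microtubules. Tekt4 was at 17.4, 7.92 and 12.3 RPKM in epithelium and at most 0.03 elsewhere, and Tekt1 at 8.77, 11.8 and 14.7 and at most 0.11. Tekt2 reached 1.64 in the second WAT endothelial library and so was in neither class. Among the axonemal Ccdc genes Ccdc39 was at 40.5, 26.7 and 27.5 and its partner Ccdc40 at 14.3, 25.9 and 24.1. Ccdc113 had the widest step of the limited genes, 13.7 in its lowest epithelial library against 0.02 in its highest other library.

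Cfap genes are named for cilia and flagella association. The highest were Cfap126, which positions basal bodies, at 70.2, 75.5 and 70.0 RPKM in epithelium, and Cfap206 at 57.1, 65.3 and 43.9. Neither exceeded 0.72 elsewhere. Cfap53 was at 40.1, 37.6 and 63.7 but reached 3.81 in lung Il33+ MSC and 3.14 in WAT endothelium. Cfap20, Cfap36 and Cfap97 were broad. Cfap20, a protein of the doublet junction, was at 15.7, 17.3 and 26.6 in epithelium and 7.97, 6.32 and 4.09 in lung Il33+ MSC.

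Most IFT and BBSome genes had levels above 1 RPKM in several populations. The exceptions were mostly low in WAT endothelium, where Bbs5 was at 0, 0.02 and 0.17 RPKM. Bbs4, Ift27 and Ift140 were also at 0 in the first endothelial library, Ift22 was at 0 in the second, and Bbs4 was at 0.02 in the second Il33+ WAT-MSC library. Ift20, the IFT-B subunit that also sits at the Golgi, was the highest outside epithelium, with 24.2, 22.5 and 26.2 RPKM in lung Il33+ MSC, 24.9, 11.3 and 31.8 in Il33+ WAT-MSC, 23.3, 21.5 and 18.8 in Il33- WAT-MSC and 9.25, 12.1 and 18.9 in WAT endothelium, beside 28.2, 36.2 and 44.3 in epithelium. All of these but the third Il33+ WAT-MSC library lay below the lowest epithelial library, and WAT endothelium had the lowest mean. Ift88, needed for cilium assembly and shown above by its promoter, was at 20.7, 13.5 and 18.3 in epithelium and 0.86 to 4.94 in the 12 others. The IFT-A gene Ift43 was at 34.0, 18.9 and 25.7 in epithelium and 1.55 to 6.41 elsewhere. The BBSome core gene Bbs2 was at 9.60, 8.14 and 8.68 in epithelium and 0.03 to 5.96 elsewhere, the lowest value being in the first WAT endothelial library. Ift122 was not analysed here.

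**Figure D3:**
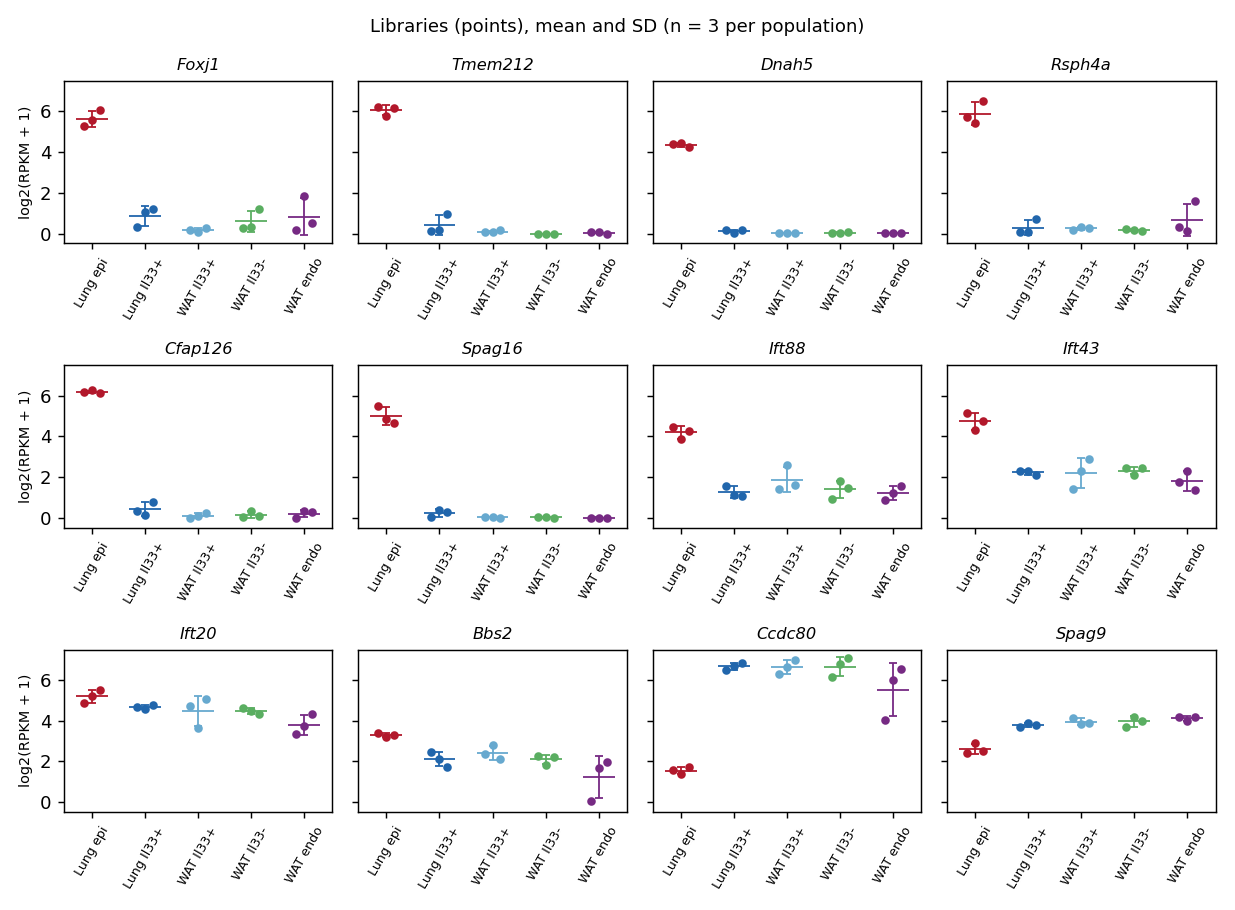
log2(RPKM + 1) of 12 genes in each library (points) with the mean and SD of each population (n = 3). Foxj1, Tmem212, Dnah5, Rsph4a, Cfap126 and Spag16 are lower in all other libraries than in any lung epithelial one, with single values up to 2.61 RPKM for Foxj1 and 2.01 for Rsph4a in WAT endothelium, Ift88, Ift43, Ift20 and Bbs2 are present in every population, and Ccdc80 and Spag9 are lowest in lung epithelium.

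The Ccdc genes with known roles elsewhere and the Spag genes set apart as outside the axoneme had no common pattern. Of the 9 Ccdc genes 1 had its highest mean in lung epithelium. Of the 3 Spag genes (Spag1, Spag7 and Spag9) 2 did, and outside the axoneme does not mean without a part in cilia. Ccdc80, a secreted matrix protein, was at 87.7, 103 and 113 RPKM in lung Il33+ MSC, 76.9, 97.6 and 127 in Il33+ WAT-MSC, 68.6, 108 and 132 in Il33- WAT-MSC and 15.4, 62.5 and 92.2 in WAT endothelium, against 1.94, 1.57 and 2.26 in epithelium. Ccdc3, a secreted protein, was highest in WAT endothelium at 36.5, 27.6 and 41.4. Ccdc47, an endoplasmic reticulum protein, was at 9.59 to 21.6 in all 15 libraries, with no population apart. Spag9, a scaffold for kinase signalling, was at 4.24, 6.38 and 4.76 in epithelium and at 11.7 to 17.4 in every other library. Spag7 was at 30.5, 14.9 and 29.5 in epithelium, 8.58, 4.79 and 14.1 in lung Il33+ MSC and up to 24.8 in WAT. Altogether 36 of the 154 genes had their highest mean outside lung epithelium, 13 in Il33- WAT-MSC, 12 in WAT endothelium, 6 in lung Il33+ MSC and 5 in Il33+ WAT-MSC.

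The summed level of the limited genes was 887, 899 and 959 RPKM in the 3 epithelial libraries, with replicate 1 the lowest for 26 of the 54 genes. Some other epithelial measures also had their highest value in replicate 3: the summed level of 6 ciliated cell markers was 408, 420 and 587, that of 3 alveolar type 2 markers, Sftpc, Sftpb and Sftpa1, was 1453, 1537 and 3049, and Foxj1 was at 37.6 to 64.9. Of the 6 ciliated cell markers Tppp3 was at 151, 198 and 291, and Sntn, Dynlrb2 and 1110017D15Rik were also highest in replicate 3. Cdhr3 and Fam183b were highest in replicate 1, as was Tmem212. The summed level of 3 club cell markers was highest in replicate 2, at 162657, 211316 and 182258. Within the limited class the epithelial means ran from 2.13 RPKM for Ccdc30 to 83.6 for Ccdc153, with a median of 11.2.

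Lung epithelial cells were compared with lung Il33+ MSC, the stromal population of the same organ. Most members were higher in epithelium: of 144 tested, 101 were higher (70.1%), 7 were lower (4.86%) and 36 did not pass the test. Over all 9352 genes tested 18.5% were higher and 24.4% lower. The test was limma on log2(RPKM + 1) with Benjamini-Hochberg adjustment over all genes, at 0.05, and a difference on this scale understates the change of low genes. Genes entered with 1 RPKM in at least 3 of the 6 libraries, and 68 members reached this in the epithelial libraries alone, among them all 54 limited genes, so that these had to differ and nothing is read from their calls. Of the 76 other members tested 33 were higher and 7 lower. Some of these too, Foxj1 among them, missed 1 RPKM in part of the lung Il33+ MSC libraries, so epithelial levels helped them past the filter. The shares over all genes include 746 genes that entered through epithelium alone, so they are no matched background for the 76. The 10 members not tested were Ccdc or Spag genes under the filter. These calls were made from the same 6 libraries that the lanes divide. Given as values only, the median log2 difference of the 101 was 2.80 in lane 1 and 2.95 in lane 2. Here and below p-values measure the spread between 3 independent experiments per group.

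The widest log2 differences were in Cfap126 (5.77 ± 0.24, SE), Tmem212 (5.63 ± 0.29), Rsph4a (5.58 ± 0.34), Cfap206 (5.57 ± 0.25) and Ccdc153 (5.57 ± 0.24). All 5 entered the test through epithelium alone, so these sizes are a description. Among genes with at least 1 lung Il33+ MSC library at 1 RPKM the widest were Foxj1 (4.77 ± 0.32, limma adjusted p = 3.57e-06), Rsph1 (4.59 ± 0.49) and Ccdc181 (4.18 ± 0.23). Few axonemal genes other than spoke genes were of this kind. They were 4 of 5 radial spoke genes, 2 of 5 smaller dynein subunits, 1 of 5 central pair genes, 1 of 8 axonemal Ccdc genes and 4 of 22 Cfap genes, and all were higher but Cfap97, at 0.30 (95% interval -0.43 to 1.02).

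Among the 19 transport genes (IFT-A, IFT-B and BBSome) all but Bbs5 had at least 1 lung Il33+ MSC library at 1 RPKM. The filter took the libraries of both groups together, so high epithelial levels could still carry such a gene past it. Both IFT-A genes, 7 of 11 IFT-B genes and 5 of 6 BBSome genes were higher in epithelium and none was lower. The 5 include Bbs5, which entered through epithelium alone and had to differ. Over all genes tested 18.5% were higher and 24.4% lower. All 19 transport differences were above 0, from 0.53 to 2.93 with a median of 1.36. Of all 9352 genes tested 4168 were above 0, with a median of -0.13. Ift88 was the largest at 2.93 ± 0.27 (limma adjusted p = 2.55e-05), then Ift43 at 2.50 ± 0.26 and Ift81 at 2.44 ± 0.23. The difference in Bbs1 was 1.91 ± 0.28 and in Bbs2 1.18 ± 0.26. Those that did not pass were Ift20 at 0.54 (95% interval 0.03 to 1.04), Ift52 at 0.62, Ift46 at 0.71, Bbs9 at 0.64 and Ift27 at 0.53 (95% interval -0.51 to 1.57). Bbs7 passed in the main test (limma adjusted p = 0.0284) and in 7 of 13 alternative settings.

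Of the 49 broad genes 16 were higher in epithelium, 6 lower and 27 did not pass, with a median difference of 0.30. Over all genes tested 18.5% were higher and 24.4% lower, with 746 that entered through epithelium alone included. The share of calls over all broad genes of the table was not computed. Ccdc181 had the largest of these differences, with 70.1, 60.1 and 60.7 RPKM in epithelium against 3.55, 2.07 and 2.20 in lung Il33+ MSC. Rsph3b followed at 2.94 ± 0.27. The axonemal genes Spef1 (1.83 ± 0.29), Dnal1 (1.71 ± 0.25) and Cfap20 (1.55 ± 0.30) were higher as well.

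The genes lower in epithelium were none of the axoneme or of transport. Ccdc80 fell by 5.13 on the log2 scale (SE 0.21, limma adjusted p = 7.01e-07). Ccdc152 was at 0.58, 0.20 and 1.14 RPKM in epithelium against 4.94, 4.02 and 5.55, Spag9 differed by -1.18 ± 0.24, and Ccdc50, a ubiquitin-binding protein, by -1.15 ± 0.26. Ccdc82 (-0.89 ± 0.31, limma adjusted p = 0.0424) passed in only 3 of 13 alternative settings and lost the call without any one of 5 of the 6 libraries, with limma adjusted p from 0.0702 to 0.145. Ccdc88a, the actin-binding protein girdin, differed by -0.79 ± 0.26 (limma adjusted p = 0.0367) and kept its call in 5 of 13. Ccdc3 (-2.36 ± 0.70, limma adjusted p = 0.0227) overlapped between groups, since the third epithelial library was at 7.93 RPKM and the others at 0.08 and 0.48, and it lost the call without epithelial replicate 1 or 2 or lung Il33+ MSC replicate 2 or 3, with limma adjusted p up to 0.085.

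**Figure D4:**
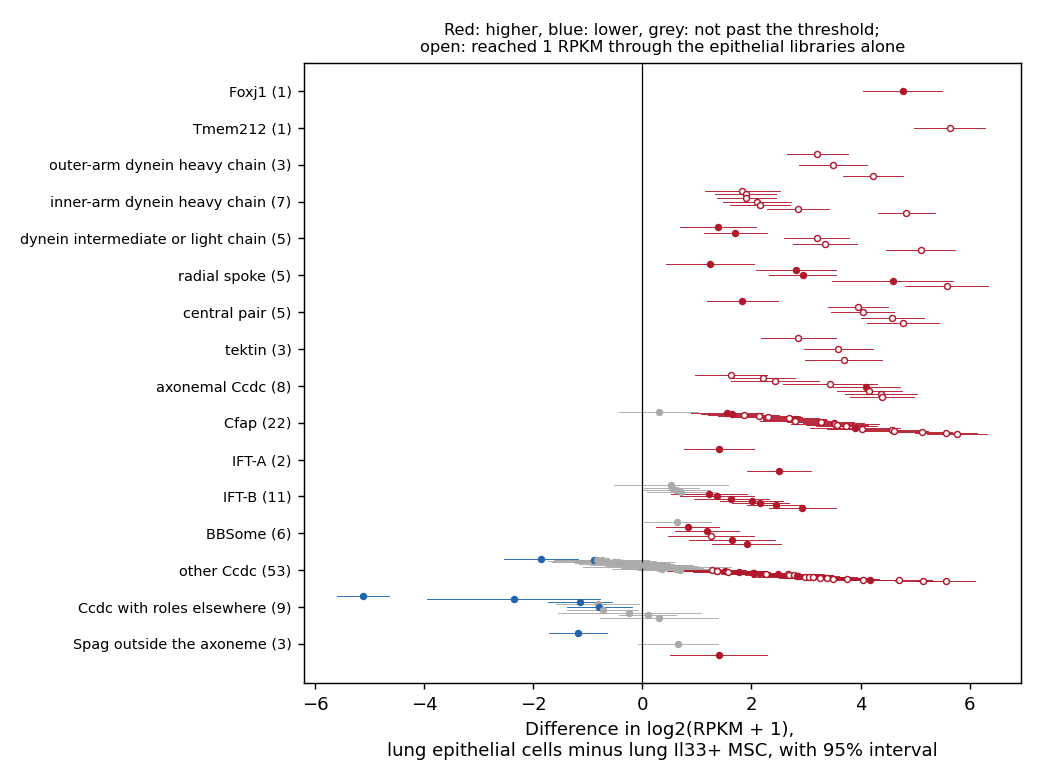
Difference in log2(RPKM + 1) between lung epithelial cells and lung Il33+ MSC for each of the 144 genes tested, by role, with its 95% interval (limma). Red genes were higher and blue genes lower in epithelium, grey genes did not pass, and open symbols mark the 68 genes that reached 1 RPKM through the epithelial libraries alone. IFT-A, IFT-B and BBSome genes all lie right of 0, and the 7 lower genes are Ccdc and Spag genes.

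The cilium genes that the naming rule leaves out were read from a separate list of 58, of which 52 were in the table and 49 could be tested. In epithelium 45 were higher than in lung Il33+ MSC and none was lower by limma, where 18.5% of all genes tested were higher. Of the 49, 22 reached the filter in the epithelial libraries alone and had to differ, and of the 27 others 23 were higher. The only difference below 0 among the 49 was that of Kifap3, a subunit of the kinesin that drives IFT, at -0.46 (95% interval -1.12 to 0.20). The largest differences were in Dynlrb2 (5.77 ± 0.38), a dynein light chain, Fam183b (5.60 ± 0.33), Cdhr3 (5.50 ± 0.25), a cadherin of ciliated cells, Ak7 (5.25 ± 0.27) and Mns1 (4.97 ± 0.32). Cdhr3, Ak7 and Mns1 entered through epithelium alone, and Dynlrb2 and Fam183b had 1 lung Il33+ MSC library above 1 RPKM, so these sizes are a description too. With the genes that had to differ included, all 5 docking and linker genes, all 16 other axonemal and basal body genes, 16 of 18 partners of IFT and the BBSome and 4 of 5 dynein assembly factors were higher. Among factors that switch on multiciliation 4 of 5 tested were higher, but Myb, Trp73 and Rfx3 entered through epithelium alone and had to differ. The other was Rfx2 (limma adjusted p = 0.0292). Myb was at 14.9, 13.8 and 17.8 RPKM in epithelium and at most 0.75 elsewhere, Trp73 at 5.01, 5.73 and 7.13 and at most 0.02 elsewhere, and Rfx3 at 6.34, 8.79 and 7.70 and at most 1.66 elsewhere. Rfx2 was less confined, at 6.45, 13.15 and 12.39 in epithelium, 4.10 to 5.96 in lung Il33+ MSC and up to 7.26 in WAT. Mcidas was at 4.37, 1.04 and 0.69 in epithelium and at most 0.07 elsewhere. Ccno, a factor for centriole amplification, was at 4.45, 2.63 and 2.31 in epithelium and 5.32, 2.07 and 1.83 in lung Il33+ MSC, with a difference of 0.08 (95% interval -0.76 to 0.93).

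Traces of the limited genes outside epithelium were largest in the lung stroma. Their summed level was 5.76, 6.37 and 10.8 RPKM in lung Il33+ MSC, or 0.63% to 1.18% of the epithelial mean, and 1.60 to 5.08 in the 9 WAT libraries, or 0.175% to 0.555%. Of the 54 genes 30 had their highest value outside epithelium in a lung Il33+ MSC library, and for 22 of these it was replicate 3. Some other epithelial transcripts were higher in those libraries than in WAT and some were not. Scgb1a1 was at 72.9, 200.3 and 493 RPKM in lung Il33+ MSC and 56.1 to 134 in the WAT libraries, and Sftpc at 93.4, 28.0 and 40.1 against 0.23 to 1.41. The summed level of 5 general epithelial markers, Epcam, Cdh1, Krt8, Krt18 and Cldn3, was 1.49 to 2.84 in lung Il33+ MSC and 0.04 to 12.5 in WAT. The highest WAT sums were mostly Krt8 and Krt18, which reached 6.77 and 5.42 RPKM in WAT endothelium. Cdh1 was at 0.42 to 1.10 in lung Il33+ MSC and at most 0.08 in WAT. Cldn3 was at 0.24 to 0.57 and at most 0.46, and Epcam at most 0.28 and 0.23. Of 6 ciliated cell markers Sntn, Dynlrb2 and Fam183b were highest in replicate 3 of lung Il33+ MSC, at 0.92, 1.61 and 1.02 RPKM, and at 0 in replicate 1. Cdhr3 was at 0.42, 0.03 and 0.46 and 1110017D15Rik at 0.21, 0.66 and 0.35. The part of such transcripts in the levels of the limited genes was not tested. The other marker, Tppp3, was higher in most WAT libraries than in lung stroma, at 28.2 to 148 RPKM in the WAT libraries and 18.7 to 45.3 in lung Il33+ MSC.

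**Figure D5:**
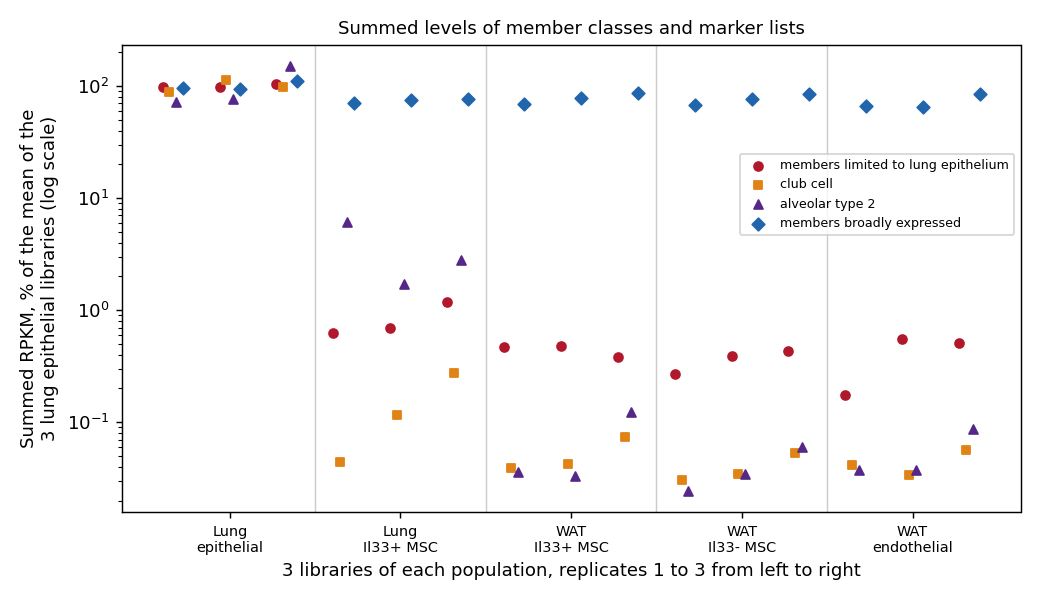
Summed RPKM of the 54 limited genes, the 49 broad genes, 3 club cell markers and 3 alveolar type 2 markers in each library, as a percentage of the mean of the 3 lung epithelial libraries (log scale). The limited genes lie at 0.63% to 1.18% in lung Il33+ MSC and at 0.175% to 0.555% in WAT, whereas the broad genes lie at 64.3% to 85.8% in the 12 libraries.

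The WAT populations and the lung stroma were then set side by side, in comparisons that share groups with each other. In none of them could a limited gene be tested, since all stayed under 1 RPKM. WAT endothelial cells against Il33+ WAT-MSC gave 2 higher genes and 0 lower of 69 tested by limma (3.34% of all genes were higher and 0.565% lower). At an unadjusted limma p under 0.05, 2 were higher and 2 lower (7.51% and 7.89% of all genes). The 2 past the adjusted threshold were Ccdc3 (36.5, 27.6 and 41.4 RPKM against 5.06, 2.46 and 11.6, log2 difference 2.48 ± 0.46, limma adjusted p = 0.0205) and Ccdc88c, a Wnt pathway protein (3.70, 3.93 and 3.41 against 0.22, 0.25 and 0.37, 1.87 ± 0.37, limma adjusted p = 0.0268). Both kept the call without endothelial replicate 1, the library with the most zeros. Ccdc3 lost it without endothelial replicate 2 or Il33+ WAT-MSC replicate 1 or 2 (limma adjusted p from 0.0609 to 0.0966), and Ccdc88c without endothelial replicate 2 or any 1 of the Il33+ WAT-MSC libraries (0.112 to 0.171). Ccdc88c reached 1 RPKM in the endothelial libraries alone, so the filter set its direction and nothing is read from its call. Over all 8665 genes tested, 3367 differences were above 0. Transport genes ran below 0 in 15 of 17, with a median of -0.50 beside -0.18 over all genes, and none passed. Several were lowest in endothelial replicate 1, where Bbs2 was at 0.03 and Ift46 at 0.02 RPKM. Without that library 16 of 17 were below 0, with a median of -0.44 beside 0.0 over all genes.

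Il33+ WAT-MSC against lung Il33+ MSC, the same gate in the 2 organs, gave 1 higher gene and 0 lower of 73 tested by limma (2.5% and 3.5% of all genes). At an unadjusted limma p under 0.05, 4 were higher and 2 lower (8.51% and 8.86% of all genes). Ccdc170 was at 1.98, 5.63 and 2.45 RPKM in WAT and 0.57, 0.32 and 0.78 in lung, a log2 difference of 1.40 ± 0.36 (limma adjusted p = 0.0481), and it kept this call in 1 of 13 alternative settings, without Il33+ WAT-MSC replicate 1. Without any 1 of the other 5 libraries its limma adjusted p was 0.0831 to 0.188. Ccdc170 reached 1 RPKM in the WAT libraries alone, so the filter set its direction and nothing is read from its call. Of the 73 differences 71 were smaller than 1 in size. Among the other cilium genes Tppp3 was higher in WAT (2.08 ± 0.31, limma adjusted p = 0.00279).

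Il33+ against Il33- WAT-MSC, the split by the reporter within 1 tissue, gave 0 higher and 0 lower genes of 72 tested by limma (0.923% and 0.651% of all genes). At an unadjusted limma p under 0.05, 1 was higher and 2 lower (6.19% and 5.41% of all genes). The differences ran from -1.22 in Ccdc9 to 0.90 in Ift52, with a median SE of 0.39, and 71 of 72 were smaller than 1 in size. Ift20 was at 24.9, 11.3 and 31.8 RPKM in Il33+ and 23.3, 21.5 and 18.8 in Il33- cells, a difference of -0.02 (95% interval -0.76 to 0.73), and Ift88 differed by 0.48 (95% interval -0.43 to 1.39), so that changes of about the size of a doubling were within the interval for Ift88. Spef1 was at 2.26, 3.83 and 3.91 against 0.95, 2.07 and 1.01 and did not pass (0.89 ± 0.36, limma adjusted p = 0.363).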

How the data were processed

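RNA of 5 sorted populations in 15 libraries was amplified (Ovation RNA-seq System V2), sequenced (HiSeq4000), aligned to mm10 with TopHat2 and quantified in Partek; versions and the handling of reads shared by similar genes are not given in the sources used here. The deposited values are RPKM per RefSeq transcript, as normalised by the authors, listed to 2 decimals. Steps from there: RPKM were summed per symbol, log2(RPKM + 1) was taken, and limma 3.58.1 (lmFit, eBayes with trend, R 4.3.3) compared 2 groups of 3 at a time over genes with 1 RPKM in at least 3 of 6 libraries, with Benjamini-Hochberg adjustment over all genes and a threshold of 0.05. The fit was tested on simulated data. RPKM keep no read counts here, so no counting intervals are given. The members and lists were chosen with earlier results of these data known. Genes were named by rule: Foxj1 and Tmem212, the 5 widest calls without overlap per direction and comparison, the 3 highest per role inside and outside epithelium, those nearest the cuts, the markers, the 5 other cilium genes with the largest change and the 5 members most like Foxj1; some genes with roles outside the axoneme and those just missing the test were added after their values were seen. Same-numbered libraries did not deviate together in every pair, so replicates were not paired.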

Additional observations from a re-analysis of the deposited data

How the results depend on the processing

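Alternatives were a pseudocount of 0.1, no filter, a filter of 5 RPKM, median-ratio scaling, a replicate block, lane as a covariate, all 15 libraries in 1 fit, the most abundant transcript, and leaving out each library with the tested genes unchanged. No direction reversed. Members higher in epithelium than in lung Il33+ MSC numbered 73 to 107 over 14 alternatives (97 to 107 without 1 library), and members lower 4 to 9: 4 with the filter of 5 RPKM, and 4 to 7 without 1 library. Median-ratio scaling moved the median of all genes from -0.13 to 0.06 (log2). For WAT endothelium against Il33+ WAT-MSC, members higher were 1 with the pseudocount of 0.1, with the filter of 5 RPKM and with the replicate block, and 0 to 2 without 1 library; members lower were 1 without a filter and in the fit of 15 libraries. For Il33+ WAT-MSC against lung Il33+ MSC, members higher were 0 in each alternative that kept all 6 libraries and 0 to 1 without 1 library; members lower were 2 without a filter and 1 with lane. The replicate block gave 100 higher and 7 lower in epithelium and 0 and 0 in both MSC comparisons; same-numbered libraries correlated by -0.067 to 0.155. The limited class held 41 to 60 genes over its alternatives; the broad class held 29 at a cut of 2 RPKM and 71 at 0.5. The cause of these changes was not tested. In the 3 smaller comparisons the count of 3 libraries a group and levels of a few RPKM limit what can be seen.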
